A study of Mus musculus with 4 samples.

Results

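Hexokinases, phosphofructokinases and fructose bisphosphatases catalyse the steps at which a cell commits glucose to glycolysis or turns the flow back towards glucose. The 10 genes followed here are Hk1, Hk2, Hk3 and Hkdc1 (hexokinases), Pfkl, Pfkm and Pfkp (phosphofructokinases), Pfkfb3 (which sets the level of the phosphofructokinase activator), and Fbp1 and Fbp2 (fructose bisphosphatases). They were picked by gene symbol from 30861 symbols on the array, by a rule that names no measured value, although the list was drawn up with earlier results of these data known. Each of the 10 had 1 probe set of the 32202 that carry a symbol, and the file's RefSeq accession of each probe set belonged to the same gene. The study measured RNA of whole colon from Balb/c mice on GeneChip Mouse Gene 2.0 ST arrays. The controls were 2 arrays (control 1 and control 2) of mice given plain drinking water, and the treated group was 2 arrays (maltodextrin 3 and maltodextrin 4) of mice whose drinking water held 5% maltodextrin, a starch-derived glucose polymer used as a food additive. Both groups received their drinking water for 45 days. The labels give no genotype, age or sex, and they do not say that each array stands for its own mouse, so every p-value here reflects array-to-array spread that could be technical.

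Hexokinases phosphorylate glucose and so trap it in the cell, and phosphofructokinase then adds the second phosphate that commits the sugar to glycolysis. Fructose bisphosphatase removes that phosphate in gluconeogenesis. The bisphosphate made by Pfkfb3 switches phosphofructokinase on and fructose bisphosphatase off. Most of these enzymes exist as isoforms encoded by separate genes and used in different tissues, and the colon wall holds epithelium, muscle, fat and immune cells that use different isoforms.

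Values are log2 intensities, and a difference is maltodextrin minus control on that scale, with its SE from a limma fit of all 32202 named probe sets. The nominal criterion asks for a 1.5-fold change or more together with p under 0.05 before adjustment. As a guide to background, the 95th percentile of 1508 odorant, vomeronasal and taste receptor probe sets was 5.88. All 10 fixed markers of colon epithelium lay above it, and their summed level was 15.35 to 15.41 on the controls and 15.35 to 15.58 on the maltodextrin arrays. The differences of single markers ran from -0.70 (Aqp8) to 0.57 (Car1), 5 of them above 0 and none at the nominal criterion. Control 2 stood apart by pancreatic acinar transcripts, with a summed level of 13.25 for 9 markers against 8.001 to 8.85 on the other arrays. Maltodextrin 3 stood apart by Alpi and Fabp2 among 8 markers of the small intestinal villus, which brought the summed level of that list to 12.22 against 9.83 to 10.35. Results are therefore also given without each of these arrays where the value or call moves. No probe set passed an adjusted p of 0.05 by limma or by the methods' t-test (0%), with 4698 at an unadjusted p under 0.05 by limma.

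Hk2 and Fbp1 were the members at the nominal criterion. Hk2 was lower and Fbp1 was higher on both maltodextrin arrays than on both controls, and the 8 other members did not meet the criterion. Over all named probe sets 12.1% met it, 8.51% higher and 3.56% lower, against 1 higher and 1 lower of the 10 members. That background moved with every array left out in turn. Only without control 2 were more named probe sets lower than higher at the criterion. None of the members passed by limma's adjusted p, which ran from 0.257 for Fbp1 to 0.971 for Hk3. The median difference of the members was 0.05, beside -0.04 over all named probe sets. The groups did not overlap for 2 members that were higher (Fbp1 and Hkdc1) and 3 that were lower (Hk1, Hk2 and Pfkp), where 25.6% and 24.7% of all named probe sets were apart in these directions. The share of members whose groups were apart is thus near the background of 50.4%.

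**Figure D1:**
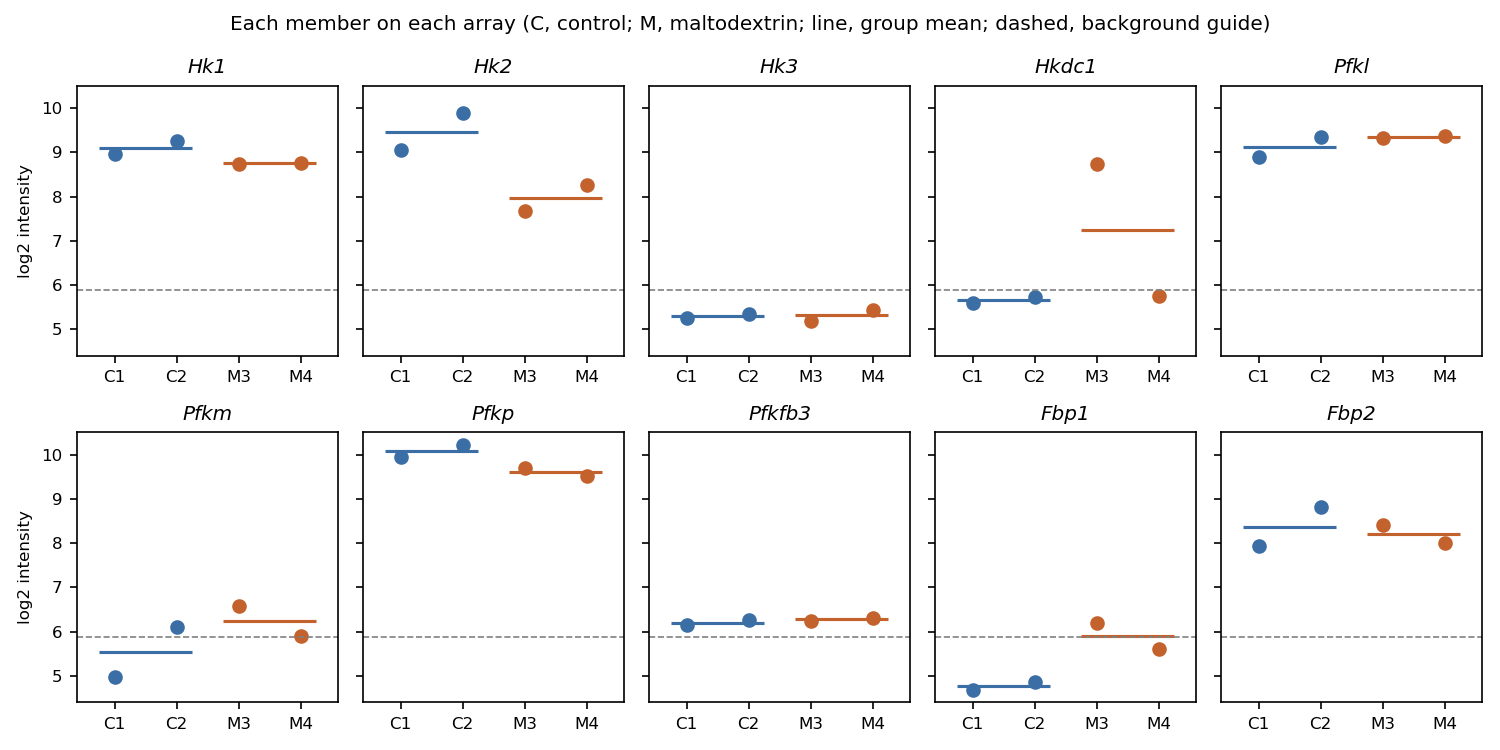
Log2 intensity of each of the 10 genes on the 4 arrays, blue for control (C1, C2) and orange for maltodextrin (M3, M4), with a line at each group mean and a dashed line at the background guide of 5.88. Hk2 is lower and Fbp1 higher on both maltodextrin arrays, Hkdc1 reaches 8.74 on maltodextrin 3 alone, and Hk3 lies under the guide on all 4 arrays.

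Among the hexokinases, Hk2 showed the clearest difference. It encodes the insulin-responsive isoform of muscle and fat, which binds mitochondria and is induced in proliferating and hypoxic cells. Hk2 (transcript cluster 17468018, chromosome 6 from 82725025 to 82774454 in GRCm38.p6) was 9.06 on control 1, 9.88 on control 2, 7.67 on maltodextrin 3 and 8.27 on maltodextrin 4. Both maltodextrin arrays lay below both controls, and all 4 lay above the background guide. The means were 9.47 ± 0.58 (SD, n = 2) and 7.97 ± 0.42 (SD, n = 2). The difference was -1.51 (SE 0.37, 95% interval -2.49 to -0.52), a level 2.84-fold higher in control, with a limma adjusted p = 0.263. Of the named probe sets, 1.56% had a difference as low or lower. The difference ranged from -1.92 without control 1 to -1.09 without control 2. Without maltodextrin 3 it was -1.21 and no longer at the nominal criterion. In that last fit only the controls give a spread, so the call depends on their spacing as well as on the difference. By the methods' t-test, which does not pool the spread over genes, Hk2 did not meet the criterion. In whole tissue, fewer cells of a type and less RNA per cell cannot be told apart.

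The promoters of Hk2 and Fbp1, which met the nominal criterion in opposite directions, and of Hkdc1, which differed between the maltodextrin arrays, are shown as the 250 bases before the transcript start that the RefSeq promoter table gives in GRCm38.p6, from 5′ to 3′ on the gene's strand. For Hk2 that start is the end of the annotated gene, while the windows of Fbp1 (in part) and Hkdc1 (wholly) lie within the gene's outermost span. The Hk2 promoter is chr6:82774455-82774704, that of Fbp1 is chr13:62888283-62888532 and that of Hkdc1 is chr10:62422458-62422707, all on the minus strand. Capitals mark matches on either strand to the CCAAT box (CCAAT), the core of the hypoxia response element (ACGTG), the E-box (CACGTG, which contains that core), the GC box (GGGCGG) and the TATA box (TATAAA).
Hk2: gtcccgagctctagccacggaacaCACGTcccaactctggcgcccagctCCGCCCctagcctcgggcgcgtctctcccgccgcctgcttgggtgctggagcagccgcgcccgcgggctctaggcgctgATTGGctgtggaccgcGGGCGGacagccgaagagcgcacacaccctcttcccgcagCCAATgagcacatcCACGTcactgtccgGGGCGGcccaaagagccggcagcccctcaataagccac
Fbp1: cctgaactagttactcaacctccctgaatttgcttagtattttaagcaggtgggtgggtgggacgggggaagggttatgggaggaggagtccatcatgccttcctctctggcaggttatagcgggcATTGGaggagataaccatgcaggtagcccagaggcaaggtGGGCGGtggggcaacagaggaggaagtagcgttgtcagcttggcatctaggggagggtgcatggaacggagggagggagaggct
Hkdc1: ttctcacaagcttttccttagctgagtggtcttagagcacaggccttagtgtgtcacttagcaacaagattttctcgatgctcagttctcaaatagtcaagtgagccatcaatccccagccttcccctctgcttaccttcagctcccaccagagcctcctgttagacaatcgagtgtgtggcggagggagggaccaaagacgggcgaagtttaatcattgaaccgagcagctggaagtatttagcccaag

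The Hk2 promoter held 2 CCAAT boxes, 2 hypoxia response cores and 3 GC boxes, whereas the Fbp1 promoter held 1 CCAAT box and 1 GC box and the Hkdc1 promoter held no match. It also had 25 CpG sites, more than 89.3% of the 32851 mouse promoters of the table, against 5 for Fbp1 and 6 for Hkdc1 and a median of 6. A CCAAT box was present in 33.8% of all promoters, the hypoxia response core in 16.6%, the E-box in 6.02%, the GC box in 32.7% and the TATA box in 12.4%. Over the 15 promoters listed for the 10 members, 7 held the hypoxia response core (those of Hk2, Hk3, Pfkm, Pfkfb3 and Fbp2), 5 a GC box, 3 a CCAAT box, 3 an E-box and 0 a TATA box. Alternative promoters of a gene can overlap, as they do for Pfkm. The Pfkp promoter, like those of Hk2 and Fbp1, held both a CCAAT box and GC boxes. The matches describe the letters in this window and are no evidence of binding.

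Hk1, the housekeeping hexokinase of most tissues, was 8.96 and 9.26 on the controls and 8.73 and 8.77 on the maltodextrin arrays. The groups did not overlap, but the difference of -0.36 (SE 0.20, 95% interval -0.87 to 0.15) has an interval that holds 0, with a limma adjusted p of 0.446. Hk3, the hexokinase of leukocytes, was 5.25 and 5.35 in control and 5.20 and 5.44 in maltodextrin, under the background guide on every array. Its difference was 0.02 (95% interval -0.48 to 0.51), so at this signal no difference was detectable. Markers of macrophages, cells in which Hk3 is known to be used, included 5 of 8 that met the nominal criterion higher and 0 lower (8.51% and 3.56% over all named probe sets), with a median difference of 0.99 and summed levels of 11.88 and 11.95 in control and 12.02 and 12.52 in maltodextrin. Lyz2, the brightest of these macrophage markers, was 11.27 and 11.50 in control and 10.79 and 11.45 in maltodextrin, a difference of -0.27. Of 8 neutrophil markers 1 met the nominal criterion higher and 0 lower, with a median difference of -0.07 and 7 means under the background guide. Their summed levels were 12.09 and 10.96 in control and 10.11 and 11.28 in maltodextrin. Most of that sum was Ly6g, at 12.02 and 10.85 in control and 9.62 and 11.10 in maltodextrin.

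Hkdc1, the hexokinase domain protein whose gene lies beside Hk1, was set apart by 1 array. It was 5.59 and 5.74 on the controls, 8.74 on maltodextrin 3 and 5.75 on maltodextrin 4. Maltodextrin 4 exceeded control 2 by far less than the distance between the controls, so the group difference of 1.58 (SE 0.999, 95% interval -1.05 to 4.21) comes from maltodextrin 3. Without maltodextrin 3 the difference was 0.08, and without maltodextrin 4 it was 3.07. The summed villus list was also highest on maltodextrin 3, carried by Alpi and Fabp2. Of its 8 markers, 6 had differences above 0, none at the nominal criterion, and their summed level was 9.89 and 9.83 on the controls, 12.22 on maltodextrin 3 and 10.35 on maltodextrin 4. Alpi, intestinal alkaline phosphatase, was 10.65 on maltodextrin 3 against 5.54 to 6.66 on the other arrays, and Fabp2, the intestinal fatty acid binding protein, was 11.41 against 7.99 to 8.42. Rbp2, a retinol binding protein and the other marker whose mean lay above the background guide, was lowest on maltodextrin 3, at 8.28 against 8.60 to 9.50. Sis, Lct, Apoa1, Apoa4 and Fabp1 had means under the background guide. The part of villus-type cells in the Hkdc1 value was not tested.

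The 3 phosphofructokinase subunits, which assemble into tetramers in combinations that depend on the tissue, gave 0 at the nominal criterion. Pfkl, the liver-type subunit, was 8.89 and 9.35 in control and 9.33 and 9.37 in maltodextrin, with control 1 alone low and a difference of 0.23 (SE 0.23, 95% interval -0.37 to 0.82). Without control 1 that difference was -0.0022. Pfkp, the platelet-type subunit, was 9.95 and 10.23 in control and 9.69 and 9.51 in maltodextrin. Its groups did not overlap, and the difference was -0.48 (SE 0.20, 95% interval -1.01 to 0.04; limma adjusted p = 0.366). Pfkp met the nominal criterion without control 1 (-0.62) and after a further quantile normalization (-0.64). Pfkm, the muscle-type subunit, was 4.97 and 6.09 in control and 6.58 and 5.90 in maltodextrin. These groups overlapped, the controls differed by 1.12, and the difference was 0.71 (SE 0.46, 95% interval -0.51 to 1.93). It ran from 0.15 without control 1 to 1.27 without control 2, where it met the nominal criterion. With either control left out only the maltodextrin arrays give a spread. More of all named probe sets then met the criterion than with all arrays.

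Pfkfb3, whose kinase activity outweighs its phosphatase activity, had the smallest range over the arrays of the 10 members, 0.174. It was 6.14 and 6.26 in control and 6.23 and 6.32 in maltodextrin, all just above the background guide, with a difference of 0.08 (SE 0.17, 95% interval -0.38 to 0.53). The other enzymes that make or break the same regulator did not meet the nominal criterion. Pfkfb1 (0.31, SE 0.18) and Pfkfb2 (0.24, SE 0.18) were higher on both maltodextrin arrays than on both controls, with 95% intervals that hold 0, and Pfkfb1 lay under the background guide on every array. Pfkfb4 and Tigar overlapped between the groups, with differences of 0.16 and 0.13.

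**Figure D2:**
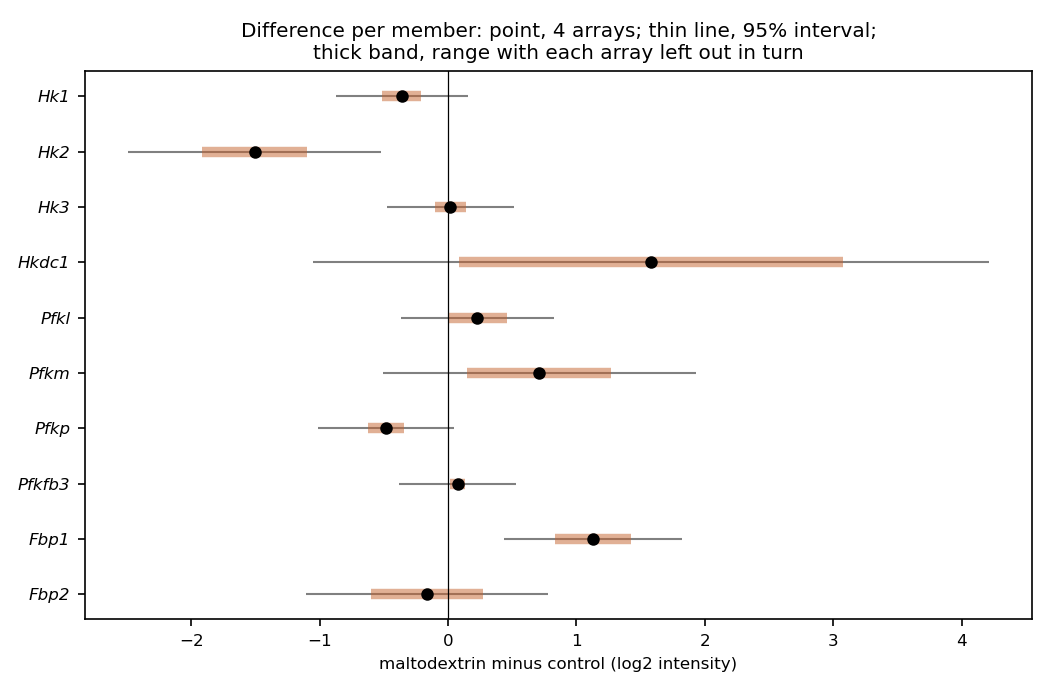
Difference between maltodextrin and control in log2 intensity for each of the 10 genes (point), with the 95% interval of the limma fit (thin line) and the range of the difference when each array is left out in turn (thick band). The intervals of Hk2 and Fbp1 lie clear of 0, and the band of Hkdc1 runs from 0.08 to 3.07.

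Fbp1, the fructose bisphosphatase of liver and kidney, was higher on the maltodextrin arrays. Fbp1 (transcript cluster 17293557, chromosome 13 from 62864753 to 62888298) was 4.68 on control 1, 4.86 on control 2, 6.19 on maltodextrin 3 and 5.60 on maltodextrin 4. Both maltodextrin arrays lay above both controls, but only maltodextrin 3 exceeded the background guide, so the difference was measured from near background. The means were 4.77 ± 0.13 (SD, n = 2) and 5.90 ± 0.42 (SD, n = 2). The difference was 1.13 (SE 0.26, 95% interval 0.43 to 1.82), or 2.18-fold, with a limma adjusted p = 0.257. Of the named probe sets, 2.53% had a difference as high or higher. Without maltodextrin 3, where Alpi and Fabp2 were high, the difference was 0.83 and no longer at the nominal criterion. Without maltodextrin 4 it was 1.42. With either maltodextrin array left out only the controls give a spread. Fbp1 did not meet the criterion by the methods' t-test.

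Fbp2, the fructose bisphosphatase of skeletal muscle, was 7.94 and 8.81 in control and 8.41 and 8.01 in maltodextrin. Both maltodextrin values lay between the controls, and the difference of -0.17 (SE 0.36, 95% interval -1.11 to 0.78) changed sign without control 2 (0.27) and without maltodextrin 4 (0.03). The intervals of Fbp1 and Fbp2 overlap, and the difference between their responses was not tested. Of 6 skeletal muscle markers, Myh1, Myh2, Tnnt3 and Mylpf had means under the background guide. Ckm, above it, was 7.43 and 7.48 in control and 8.26 and 6.78 in maltodextrin, a difference of 0.07. Acta1, also above it, differed by -0.38. Of the 6 markers 2 had differences above 0, Ckm and Mylpf (0.38). Only Myh2 met the nominal criterion, lower, as did 3.56% of all named probe sets. It was 4.82 and 5.09 in control and 4.28 and 4.15 in maltodextrin, under the guide on every array.

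The genome placed 2 pairs of members side by side. Hk1 (chromosome 10 from 62268855 to 62379920) and Hkdc1 (62383137 to 62423711) are 3216 bases apart, and Fbp2 (chromosome 13 from 62836884 to 62858400) and Fbp1 are 6352 bases apart, in each case with 0 annotated genes between them in GRCm38.p6. The members of a pair were not highest on the same array. Hkdc1 was highest on maltodextrin 3, where Hk1 was lowest, and Fbp2 was highest on control 2, where Fbp1 was below both maltodextrin arrays.

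The controls themselves differed in these genes. Control 2 exceeded control 1 for 10 of 10 members, by a median of 0.29, where 42.9% of all named probe sets and 49.9% of those with a mean log2 of at least 5 were higher on control 2. For 5 members (Hk3, Pfkl, Pfkm, Pfkfb3 and Fbp2) the distance between the controls was larger than the difference between the groups. Control 1 was the lowest array for 6 members and the highest for 0. Control 2 also carried the pancreatic transcripts and the highest summed level of 8 adipocyte markers, 11.83 against 10.37 on control 1, 10.95 on maltodextrin 3 and 9.48 on maltodextrin 4. Adipocyte and smooth muscle markers are given here because Hk2 is used in fat and muscle. For both lists 8 of 8 markers had differences below 0, none at the nominal criterion. Of all named probe sets, 46.0% had differences above 0. The groups were apart, lower, for 2 adipocyte and 4 smooth muscle markers (24.7% of all named probe sets). Relative to their means over the 4 arrays, Hk2, the adipocyte sum and the smooth muscle sum were all highest on control 2 (1.16, 1.17 and 0.26). On control 1 they were 0.34, -0.28 and 0.12, and on maltodextrin 4 they were -0.45, -1.18 and -0.39. Hk2 was lowest on maltodextrin 3 (-1.05), where the adipocyte and smooth muscle sums were 0.29 and 0.01. Adipoq and Lep had means under the background guide, and no smooth muscle marker did. The smooth muscle list had summed levels of 15.10 and 15.24 in control and 14.99 and 14.60 in maltodextrin. The part of these cell types and of pancreatic tissue in the Hk2 value was not tested.

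**Figure D3:**
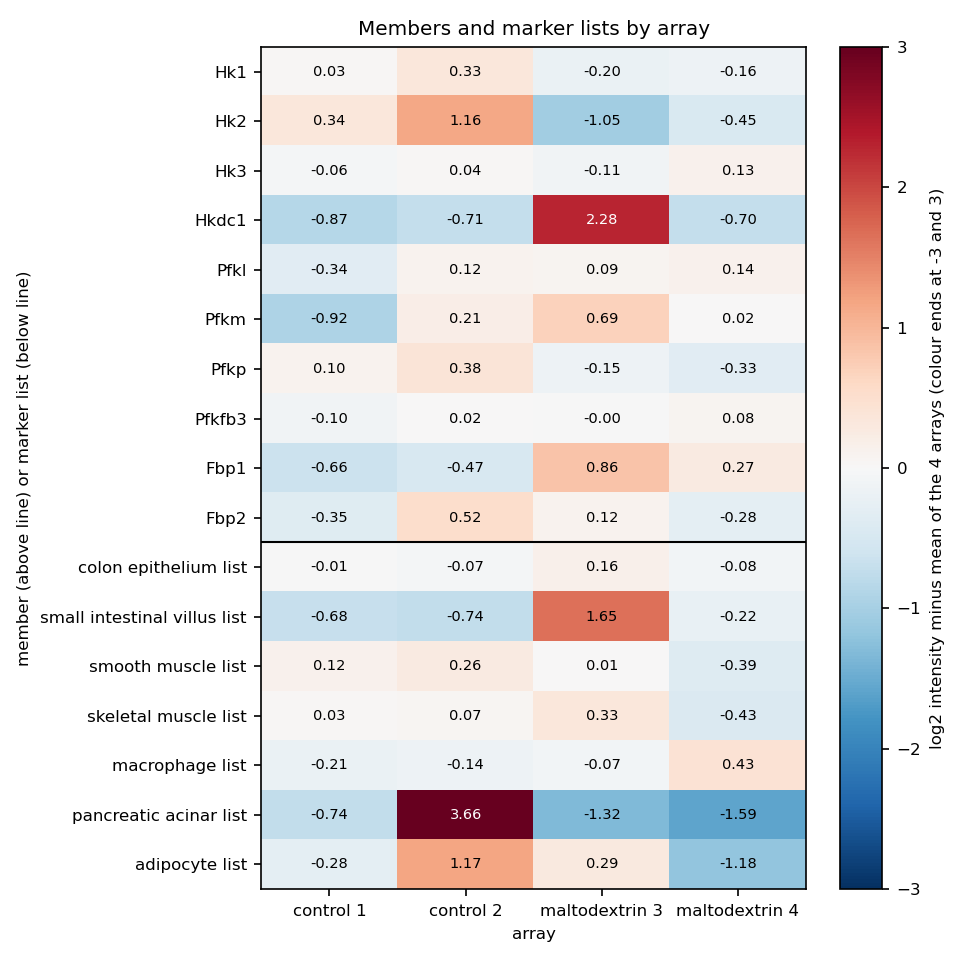
Log2 intensity of each gene, and log2 of the summed intensity of each marker list, minus the mean of the 4 arrays. Columns are arrays, red is above and blue below the mean. Hkdc1 (2.28) and the villus list (1.65, carried by Alpi and Fabp2) are both high on maltodextrin 3, the pancreatic list is high on control 2 (3.66), and Hk2 is above the mean on both controls.

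Other enzymes of glycolysis and gluconeogenesis placed the members in their pathway. Of 27 genes considered 25 were measured, and 3 met the nominal criterion higher and 0 lower, beside 8.51% and 3.56% of all named probe sets. Their median difference was 0.16, beside 0.14 for the 17845 named probe sets with a mean log2 of at least 5. Of those 17845 probe sets, 2621 met the criterion higher and 614 lower. Aldoa and Eno1 were not analysed here. None passed by limma's adjusted p.

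In gluconeogenesis, 2 of 6 genes met the nominal criterion, both higher, as did 8.51% of all named probe sets. Both serve the last step, as does G6pc, which did not meet it. G6pc3, the widely expressed catalytic subunit of glucose-6-phosphatase, was 7.01 and 6.92 in control and 8.32 and 7.97 in maltodextrin. Slc37a4, which carries glucose-6-phosphate into the endoplasmic reticulum for that enzyme, was 7.74 and 7.36 in control and 8.51 and 8.76 in maltodextrin. Both genes were higher on both maltodextrin arrays, by 1.18 (SE 0.20) for G6pc3 and 1.08 (SE 0.23) for Slc37a4, with limma adjusted p-values of 0.233 and 0.249. Slc37a4 was at 0.96 and off the nominal criterion without maltodextrin 4, a fit in which only the controls give a spread. G6pc3 met the criterion with each array left out. G6pc, the subunit of liver and kidney, was near background and differed by 0.07. The entry enzymes Pcx, Pck1 and Pck2 did not meet the criterion, with differences of -0.75, 0.54 and 0.59. Pcx was -0.23 without maltodextrin 3 and -1.26 without maltodextrin 4, Pck1 was -0.06 without control 1 and 1.14 without control 2, and Pck2 was 0.29 without control 1 and 0.88 without control 2.

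In glycolysis, 1 of 14 measured genes met the nominal criterion, higher (8.51% of all named probe sets). Pgam1, a phosphoglycerate mutase, was 8.42 and 8.03 in control and 8.70 and 9.36 in maltodextrin. Its difference of 0.80 (SE 0.30; limma adjusted p = 0.342) lay at the edge of the criterion and was 0.61 without control 2 and 0.47 without maltodextrin 4, off it. The widest difference in the list, that of the muscle enolase Eno3, came from 1 array, with 8.74 on maltodextrin 3 against 10.61 to 10.95 on the others. It was -1.08 (SE 0.66) with all arrays and -0.12 without maltodextrin 3. Among the regulators, Gckr, the inhibitor protein of glucokinase, had the widest difference (-0.38, SE 0.30) and lay under the background guide, with control 1 alone higher at 4.68 against 3.91 to 3.93.

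**Figure D4:**
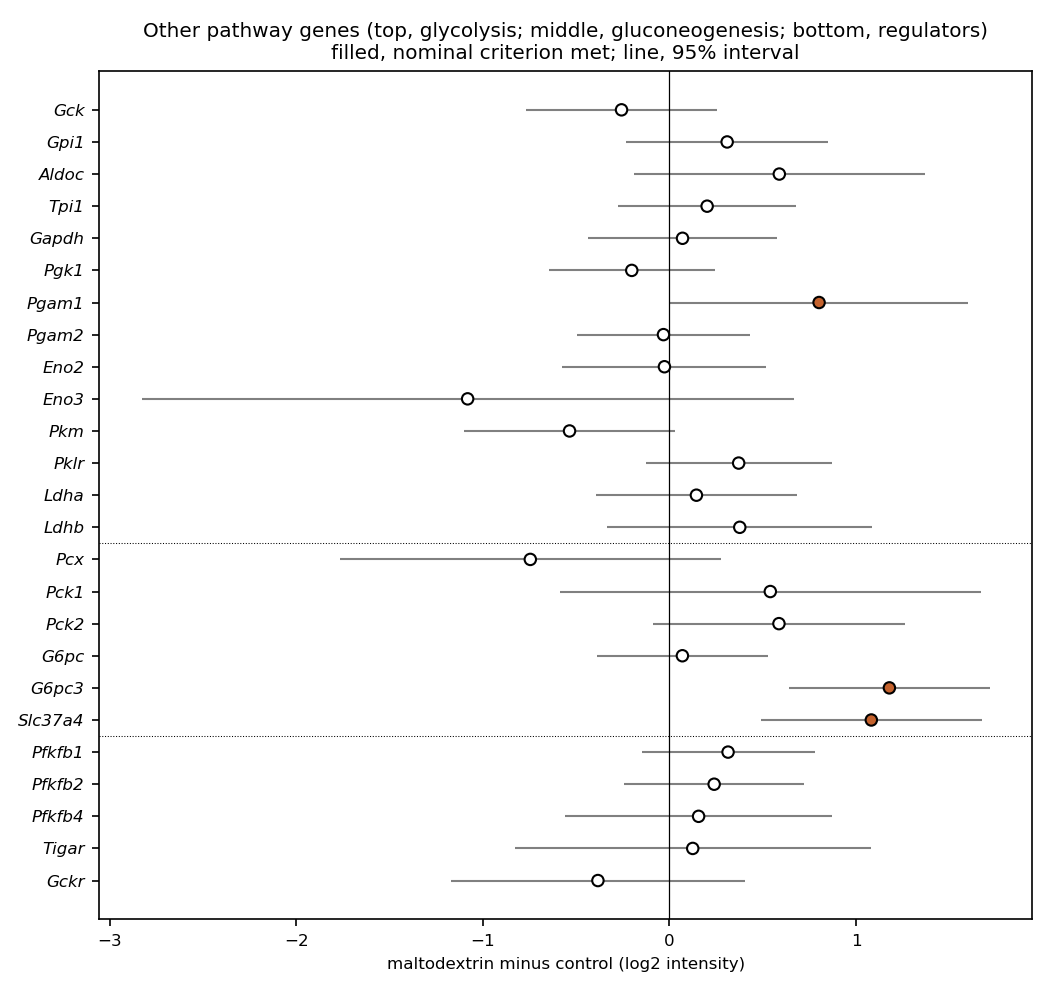
Difference between maltodextrin and control in log2 intensity for 25 other genes of glycolysis (top), gluconeogenesis (middle) and their regulation (bottom), with 95% intervals of the limma fit. Filled points met the nominal criterion. The 3 filled genes, Pgam1, G6pc3 and Slc37a4, all lie above 0.

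The genes whose course over the 4 arrays was most like that of Hk2 or Fbp1 were sought among 14194 named probe sets, those with a mean log2 of at least 5 less the members, predicted genes, clone names and short noncoding RNAs, by the root mean square distance between profiles centred on their own mean. For Hk2 the nearest were Olfr535 (distance 0.12), an odorant receptor gene whose mean is under the background guide, and Ppnr (0.16), with 6 probe sets within 0.2. For Fbp1 they were Fstl4 (0.06) and Cbfa2t3 (0.07), with 231 within 0.2. Fstl4 was 5.40 and 5.55 in control and 7.05 and 6.36 in maltodextrin. With 4 arrays such likeness is a description of these samples.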

How the data were processed

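Total RNA of mouse colon was hybridised to 4 arrays, per the labels' protocols. The tool was Partek 6.6, per the submitters' processing notes. Which background correction, normalization and summary were applied is not given in the sources used here. As deposited, the values are log2 intensities of 41345 probe sets, with array medians from 5.20 to 5.35. The authors' deposited comparison table gives per row a ratio, a signed fold (a score, negative where the ratio is under 1) and a p-value, per the file headers. Log2 of that ratio matched the group means to within 8.7e-05. Its p-value matched an equal-variance test of these intensities to within 0.00064 (1 row has no p), hence its name below, the methods' t-test. A fold printed here is the antilog of a difference of log2 means.

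Probe sets were named from the deposited comparison table, joined on the transcript cluster. All 10 members hybridise to 1 place only, per the file headers. Limma 3.58.1 (lmFit and eBayes, 2 residual and 2.62 prior degrees of freedom) in R 4.3.3 was run on the 32202 probe sets with a symbol, two-sided, with Benjamini-Hochberg adjustment, and was tested on simulated data. With 2 arrays per group an exact permutation test cannot go below p = 0.333, so none was made. The number of arrays limits the precision. The 2 controls correlated at 0.950 and the 2 maltodextrin arrays at 0.984 across probe sets. Between the groups the correlations ran from 0.944 to 0.957. Control 1 and control 2 each correlated more with maltodextrin 4 (0.957 and 0.952) than with each other.

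The members, the pathway and marker lists and the tests were chosen with earlier results of these data known. Genes named are all members, the pathway genes at the nominal criterion, the widest difference in each pathway list, the nearest 2 profiles to each member at the criterion, and some further genes chosen after their values were seen. For a gene with several probe sets the brightest was used. A pathway gene of the lists is not reported here and is left out of their counts. Adgre1 and Tigar were matched through their accessions to older symbols. Promoters and positions are from RefSeq (GRCm38.p6), where all 10 members matched. Marker list levels are log2 of summed intensities. The 12 alternatives were a filter at a mean log2 of 5, a further quantile normalization, median centring, all rows, trend and robust eBayes, the methods' t-test, a minimum fold of 2, the fold and p-value as deposited, and each array left out in turn.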

Additional observations from a re-analysis of the deposited data

How the results depend on the processing

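Hk2 and Fbp1 met the nominal criterion in the same direction under each alternative but 3: by the methods' t-test and by the authors' deposited fold and p-value 0 members met it, and 0 without maltodextrin 3. With each array left out in turn the count of members ran from 0 to 3, that of all named probe sets from 1288 (without maltodextrin 3) to 6894 (without control 2), with 6369 without control 1 and 1949 without maltodextrin 4, and that of pathway genes from 3 to 5. At an adjusted p under 0.05 the count of all named probe sets ran from 0 to 905 (without control 1), with 671 without control 2. In those 2 fits only the maltodextrin arrays give a spread, which the remaining control is taken to share. With a maltodextrin array left out only the controls give it, and a lost call can reflect that spread. The methods' t-test and the authors' deposited values gave 1615 named probe sets and 2 pathway genes, and a fold of at least 2 gave 1394 and 2. Of 120 values of single members under the alternatives, 105 kept direction and side of the criterion. The filter, all rows, trend and robust eBayes, the methods' t-test, the deposited values and the fold of 2 leave a difference unchanged. Under these settings no member could turn in sign. With an array left out, 30 of 40 values kept both, and 5 turned in sign. Hk3 was -0.03 without control 1 and -0.10 without maltodextrin 4 (highest 0.14), and Pfkl was -0.0022 without control 1 (highest 0.46). Fbp2 was 0.27 without control 2, larger in size than its -0.17 with all arrays, and 0.03 without maltodextrin 4 (lowest -0.60). Quantile normalization and median centring turned no member, and moved the median of all genes from -0.04 to 0.01 and 0.03. Apart from what the construction of an alternative shows, the cause was not tested. No paired analysis was possible because the labels number the arrays in 1 series through both groups. Hk3 on all arrays, and Fbp1 and Hkdc1 on 3 of 4, lay under the background guide, which limits what could be detected for them.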
